A study of Mus musculus with 12 samples.

Results

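The genes of 6 proteins stored in the secondary granules of neutrophils were followed across the 4 groups of the study: Ltf, Camp, Ngp, Lcn2, Mmp8 and Cd177. They were chosen by name, and every probe set whose platform annotation gave exactly 1 symbol, and that symbol one of these names, was taken. Each of the 6 genes had 1 such probe set, so 6 of 28805 probe sets with 1 symbol, or 6 of 15858 genes, are described. All 6 were measured and none was removed by a filter on low values.

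RNA was profiled on 12 Affymetrix mouse arrays, 3 for each group. All cells came from C57BL/6 bone marrow that had been immortalised with HoxA9, a homeobox transcription factor, so this background was shared by the controls. Before transplantation into irradiated mice they received a retroviral vector: an empty vector, pSF91-IDH1wt-IRES-EGFP (the IDH1wt group) or pSF91-IDH1mut-IRES-GFP (the IDH1mut group). IDH1 is isocitrate dehydrogenase 1, a metabolic enzyme, and its cancer-associated mutants produce the metabolite R-2-hydroxyglutarate, called R-2HG below. Samples of the R-2HG group came from mice that carried empty vector cells and received 1 mg of R-2HG daily for 4 weeks. GFP-positive marrow cells were sorted 4 weeks after transplantation or treatment. The labels name neither the recipients' age nor the amino acid change in IDH1mut, and whether the 3 replicates of a group were different mice or transductions is not said in them. Every p-value here therefore reflects a spread between arrays that may be technical. For R-2HG, the description field gives the IDH1mut vector while title, source name and construct field give the empty vector, and the latter were followed.

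Neutrophils fill their granules in sequence as they mature. Primary granules are made first, in promyelocytes, and hold myeloperoxidase and the serine proteases. Secondary (specific) granules follow in myelocytes and metamyelocytes and hold lactoferrin, cathelicidin, lipocalin 2 and the collagenase MMP8, and their genes are switched on as a group under C/EBP transcription factors, C/EBP epsilon above all.

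Promoter sequence is shown for 3 of the genes, the one with the largest difference between groups (Mmp8), Ltf, and the one with the smallest (Ngp), because the secondary granule genes are known to share C/EBP control, with differences taken as the range over the 12 arrays. Each run is the 250 bases before the annotated start in RefSeq's GRCm38.p6, read 5′ to 3′ on the gene's own strand, which is the plus strand for all 3. The windows are chr9:7558179-7558428 for Mmp8, chr9:111019042-111019291 for Ltf and chr9:110419558-110419807 for Ngp. Capitals mark every match, on either strand, to TTNNGNAA (a loose C/EBP pattern), AGGAA (the core bound by ETS factors such as PU.1) or TATAA, and matches of different patterns may overlap.
Mmp8: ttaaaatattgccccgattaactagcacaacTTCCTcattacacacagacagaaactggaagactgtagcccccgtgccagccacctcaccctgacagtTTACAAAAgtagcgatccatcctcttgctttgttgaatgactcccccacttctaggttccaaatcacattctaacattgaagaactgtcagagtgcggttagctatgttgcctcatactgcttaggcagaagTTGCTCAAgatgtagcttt
Ltf: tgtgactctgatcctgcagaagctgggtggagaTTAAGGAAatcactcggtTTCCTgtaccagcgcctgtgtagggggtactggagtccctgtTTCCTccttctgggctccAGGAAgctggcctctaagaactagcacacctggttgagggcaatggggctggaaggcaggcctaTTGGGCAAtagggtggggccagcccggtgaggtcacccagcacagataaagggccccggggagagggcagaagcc
Ngp: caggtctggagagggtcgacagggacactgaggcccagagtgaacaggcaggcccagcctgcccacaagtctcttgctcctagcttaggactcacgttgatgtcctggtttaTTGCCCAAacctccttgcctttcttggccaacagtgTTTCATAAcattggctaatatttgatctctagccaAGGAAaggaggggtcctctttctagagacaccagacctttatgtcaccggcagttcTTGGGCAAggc
The C/EBP pattern was present in 5 of the 6 members, Camp being the exception, and in 36.8% of the 32851 windows of the same length in the table. Mmp8 had 2 matches, starting at bases -151 and -19 (counted back from -1, the base before the start). Ltf had 2, at -217 and -75, the first of which overlaps an AGGAA, and Ngp had 3, at -138, -102 and -11. AGGAA was found in 6 of 6 members and in 60.3% of all windows, and TATAA in 1 of 6, Cd177, and in 22.8%. Such matches describe letters only. Of the members not shown, Lcn2 and Cd177 had 1 match each to the C/EBP pattern and Camp 0. A relation between matches and expression was not tested.

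The deposited values are log2 expression values centred per probe set, so each value is a difference from that probe set's own reference and no absolute level is known. Levels cannot be compared between genes, and the sorted cells could not be checked against the level of their defining markers. The number of arrays limits the precision, and in bulk RNA fewer cells of a type and less RNA per cell cannot be told apart. Over all probe sets with 1 symbol the SD of the difference between 2 arrays was 0.176 to 0.363 for arrays of 1 group and 0.291 to 0.559 for arrays of different groups. R-2HG replicates 1 and 2 nearly coincided in Mmp8 (0.718 and 0.717, replicate 3 at 0.156) and Ltf (0.415 and 0.414, replicate 3 at 0.203). They were less close in Lcn2 (0.218 and 0.187, replicate 3 at 0.135). Whether replicates 1 and 2 are independent samples is not known, so n = 3 may be too many for R-2HG. Fold changes below are log2 differences from limma with the SE of the fit and n = 3 per group, and p-values are adjusted over all 15858 genes with a threshold of 0.05.

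Mmp8 encodes neutrophil collagenase, a metalloproteinase that cleaves fibrillar collagen (probe set 1449366_at, chromosome 9, 7558429 to 7568486 in GRCm38.p6). Its centred values were -0.32, -0.88 and -0.87 in the empty vector replicates 1 to 3, and 0, 0 and -0.16 in IDH1wt. They were 1.48, 1.497 and 1.39 in IDH1mut and 0.72, 0.72 and 0.16 in R-2HG. The 4 groups did not overlap anywhere: every IDH1mut array lay above every R-2HG array, these above IDH1wt, and IDH1wt above empty vector. The range over the 12 arrays was 2.37, against a median of 0.62 over all genes, and 15679 of the 15858 genes had a smaller one. R-2HG replicate 3 lay closer to IDH1wt than to the other R-2HG arrays, and empty vector replicate 1 lay above the other 2.

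Ltf encodes lactoferrin, the iron-binding protein that serves as the classical marker of secondary granules (1450009_at, chromosome 9, 111019292 to 111042766). It stood at -0.15, -0.36 and -0.34 in empty vector and at -0.18, -0.20 and -0.16 in IDH1wt. In IDH1mut it stood at 0.37, 0.48 and 0.42 and in R-2HG at 0.41, 0.41 and 0.20. The 12 arrays thus fell on 2 sides, with IDH1mut and R-2HG above and overlapping each other, and IDH1wt and empty vector below and overlapping each other.

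Lcn2 encodes lipocalin 2, which binds bacterial siderophores and so withholds iron (1427747_a_at, chromosome 2, 32384637 to 32387739). Its values were -0.14, -0.18 and -0.26 in empty vector and -0.17, -0.24 and -0.24 in IDH1wt. They were 0.065, 0.13 and 0.14 in IDH1mut and 0.22, 0.19 and 0.14 in R-2HG. The arrays divided as for Ltf, over a narrower range of 0.48, and R-2HG replicate 3 was here 0.14, level with the upper IDH1mut arrays.

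Cd177 encodes a neutrophil surface glycoprotein that is held in secondary granules and in humans presents proteinase 3 at the membrane (1424509_at, chromosome 7, 24743983 to 24760334). It stood at -0.017, 0.048 and -0.068 in empty vector and at -0.32, -0.14 and -0.30 in IDH1wt. In IDH1mut it stood at 0.46, 0.60 and 0.54 and in R-2HG at 0.49, 0.54 and 0.19. Here the control groups separated, all IDH1wt arrays lying below all empty vector arrays, while IDH1mut and R-2HG overlapped above both. R-2HG replicate 3 was again the lowest of its group.

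Camp encodes the mouse cathelicidin precursor, from which the antimicrobial peptide CRAMP is cut (1419691_at, chromosome 9, 109847377 to 109849456). Its values were -0.057, 0 and -0.024 in empty vector and -0.22, -0.15 and -0.18 in IDH1wt. They were 0.026, 0.073 and 0.061 in IDH1mut and -0.0014, 0.0047 and 0.024 in R-2HG. IDH1wt lay clear below all other groups and IDH1mut, by a narrow margin, clear above them, within a total range of 0.29. Of the 15858 genes, 817 had a smaller range.

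Ngp encodes neutrophilic granule protein, a relative of the cathelicidins (1418722_at, chromosome 9, 110419808 to 110423012). It stood at -0.0086, -0.0016 and -0.038 in empty vector, at -0.040, -0.014 and -0.080 in IDH1wt, at -0.026, 0.0072 and 0.028 in IDH1mut and at 0, 0.016 and 0.036 in R-2HG. Its range over the 12 arrays was 0.12, and only 5 of the 15858 genes had a smaller one. How bright this probe set was, and so how far it could still have moved, is not known from centred values.

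**Figure D1:**
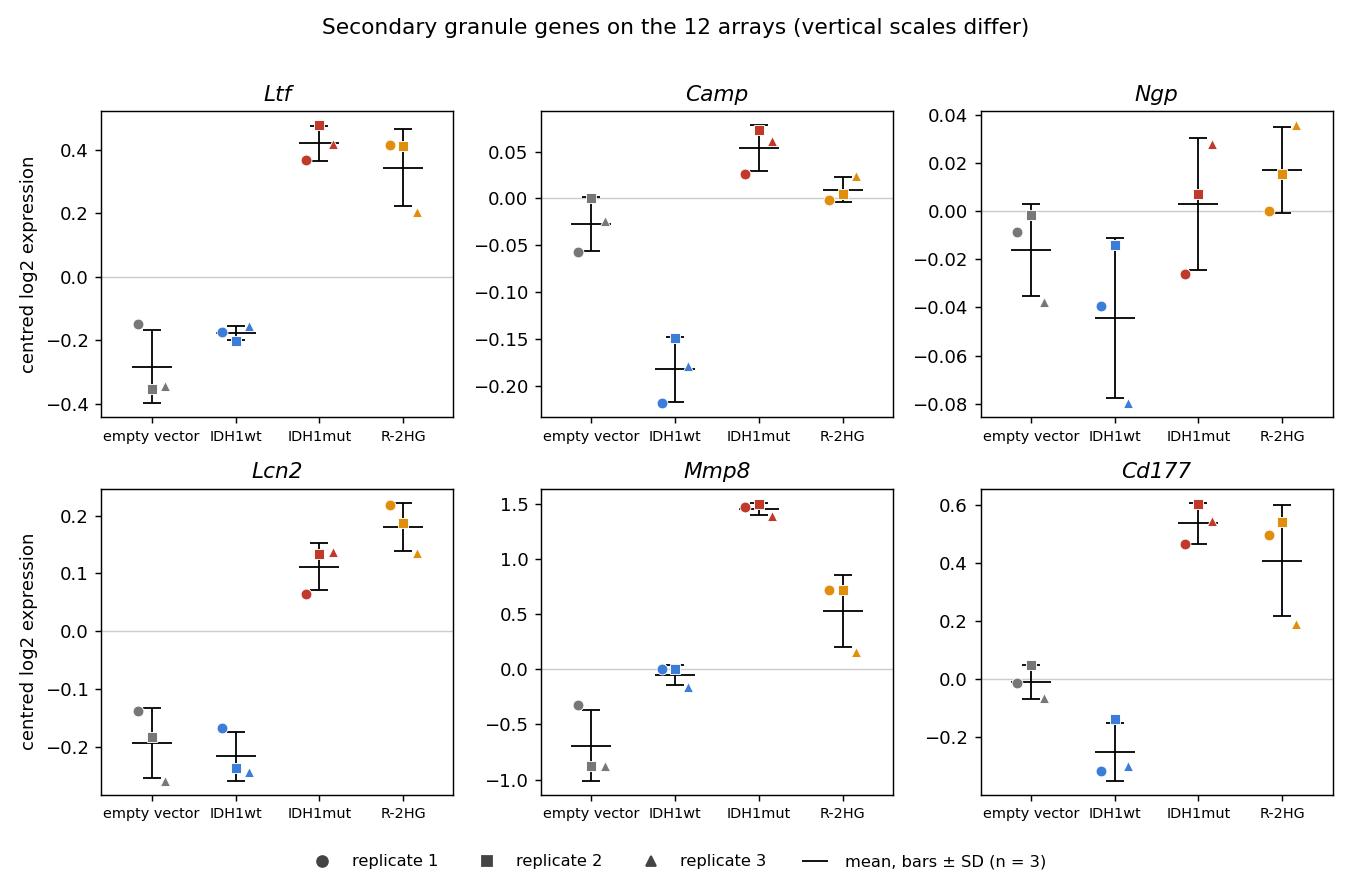
Centred log2 expression (vertical axis, a separate scale for each gene) of the 6 genes on each of the 12 arrays, by group. Symbols give the replicate, horizontal lines the group mean and bars the SD (n = 3). Mmp8 spans from -0.88 to 1.497 and orders the 4 groups without overlap, whereas all values of Ngp lie between -0.080 and 0.036.

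Mutant IDH1 was compared with the empty vector to measure what the mutant construct changed. Of the 6 secondary granule genes, 4 rose and 0 fell, where 22.6% of all genes were called, 10.5% as higher. Mmp8 rose most, by a log2 fold change of 2.15 ± 0.17 (4.43-fold, adjusted p = 1.31e-05), and was 25th of all genes by p. Ltf rose by 0.70 ± 0.08 (adjusted p = 0.000124), Cd177 by 0.55 ± 0.10 (adjusted p = 0.00169) and Lcn2 by 0.31 ± 0.06 (adjusted p = 0.00473). Camp (0.081 ± 0.058, adjusted p = 0.355) and Ngp (0.019 ± 0.057, adjusted p = 0.85) did not pass, and the 95% confidence intervals of their log2 differences, -0.045 to 0.21 and -0.11 to 0.14, end below the change seen in Ltf. The groups did not overlap for 5 of the 6 genes, Ngp being the exception, as for 41.1% of all genes. The median log2 fold change of the 6 was 0.43, against -0.047 over all genes.

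R-2HG given to the mice was compared with empty vector cells in mice without it, to measure what changed without the mutant construct. The daily dosing itself and the time since transplantation may also differ between these groups, and cannot be told apart from the metabolite. Again 4 of the 6 genes rose and 0 fell, in a comparison where 40.8% of all genes were called, 16.5% as higher. Mmp8 rose by 1.22 ± 0.17 (2.33-fold, adjusted p = 0.000247), Ltf by 0.63 ± 0.08 (adjusted p = 0.000194), Cd177 by 0.42 ± 0.10 (adjusted p = 0.0048) and Lcn2 by 0.37 ± 0.06 (adjusted p = 0.000832). Camp was at 0.036 ± 0.058 (adjusted p = 0.642) and Ngp at 0.033 ± 0.057 (adjusted p = 0.67), with 95% confidence intervals of -0.089 to 0.16 and -0.092 to 0.16. The groups did not overlap for 5 of the 6, Camp being the exception, against 53.5% of all genes, and the median was 0.40, against 0.003 over all genes. Without R-2HG replicates 1 and 2, 2 of the 6 genes kept a call, Mmp8 (0.85, adjusted p = 0.0219) and Ltf (0.49, adjusted p = 0.0211), while Lcn2 was at 0.33 (adjusted p = 0.0514) and Cd177 at 0.20 (adjusted p = 0.27), where the spread of the 1 array left is taken from the other groups. Both comparisons use the same empty vector arrays, so their likeness is no independent evidence.

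Mutant IDH1 and R-2HG differed from each other in Mmp8, which was higher in IDH1mut by 0.93 ± 0.17 (1.90-fold, adjusted p = 0.00258). It was the 1 member called, in a comparison where 36% of all genes were called, 20.3% as higher. The other 5 log2 differences did not pass: 0.13 ± 0.10 for Cd177 (95% confidence interval -0.080 to 0.34), 0.078 ± 0.081 for Ltf (-0.099 to 0.25), -0.069 ± 0.063 for Lcn2 (-0.21 to 0.069), 0.044 ± 0.058 for Camp (-0.081 to 0.17) and -0.014 ± 0.057 for Ngp (-0.14 to 0.11). Their adjusted p-values ran from 0.303 for Cd177 to 0.862 for Ngp, which does not show that the groups were alike. The groups did not overlap for Mmp8 and Camp, as for 47.9% of all genes. Without R-2HG replicates 1 and 2 the difference in Cd177 was 0.35 and that in Ltf 0.22, with neither called.

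Wild-type IDH1 was compared with the empty vector as the control for the construct. None of the 6 genes passed (limma, 0 of 6 at an adjusted p under 0.05, 3 of 6 at an unadjusted p under 0.05), in a comparison where 1.35% of all genes were called, 0.788% as higher. Mmp8 was at 0.64 ± 0.17 (1.56-fold, adjusted p = 0.0827), Cd177 at -0.24 ± 0.10 (adjusted p = 0.242) and Camp at -0.16 ± 0.06 (adjusted p = 0.206). For these 3 the groups did not overlap, as for 23.8% of all genes, with Mmp8 above and Cd177 and Camp below empty vector. Ltf was at 0.11 ± 0.08 (95% confidence interval -0.071 to 0.28), Ngp at -0.028 ± 0.057 and Lcn2 at -0.023 ± 0.063 (-0.16 to 0.11). Mmp8 passed after quantile normalization (0.72, adjusted p = 0.0469), with array weights (0.69, adjusted p = 0.00937), and when empty vector replicate 1 (0.82, adjusted p = 0.0239) or R-2HG replicate 3 (0.64, adjusted p = 0.0268) was left out, the latter an array that enters this comparison only through the shared estimate of the spread.

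Mutant IDH1 was also set against wild-type IDH1, so that both groups carried an IDH1 construct. Of the 6 genes, 5 rose and 0 fell, where 15.7% of all genes were called, 8.37% as higher. Mmp8 rose by 1.51 ± 0.17 (2.84-fold, adjusted p = 0.000217), Cd177 by 0.79 ± 0.10 (1.73-fold, adjusted p = 0.000382), Ltf by 0.60 ± 0.08 (adjusted p = 0.000689) and Lcn2 by 0.33 ± 0.06 (adjusted p = 0.005). Camp joined them with 0.24 ± 0.06 (adjusted p = 0.0164), and Ngp was at 0.047 ± 0.057 (adjusted p = 0.643). The differences in Camp and Cd177 include their lower values in IDH1wt than in empty vector (-0.16 and -0.24, neither called). Against empty vector, Camp was at 0.081 in IDH1mut and was not called. The same 5 genes had groups that did not overlap, against 32.7% of all genes. The call for Camp was lost with only the 6 arrays of the comparison (adjusted p = 0.0746), and when IDH1wt replicate 1 (adjusted p = 0.0552) or IDH1mut replicate 2 (adjusted p = 0.0565) was left out.

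R-2HG against wild-type IDH1 gave 5 of 6 genes higher and 0 lower, where 44.4% of all genes were called, 21.4% as higher. Cd177 rose by 0.66 ± 0.10 (adjusted p = 0.00041), Mmp8 by 0.58 ± 0.17 (1.498-fold, adjusted p = 0.0143), Ltf by 0.52 ± 0.08 (adjusted p = 0.000579), Lcn2 by 0.40 ± 0.06 (adjusted p = 0.000652) and Camp by 0.19 ± 0.06 (adjusted p = 0.0186). Mmp8, the furthest mover in IDH1mut, was thus not the largest here, and Ngp was at 0.062 ± 0.057 (adjusted p = 0.398). The groups did not overlap for 6 of 6 genes, against 53.4% of all genes. The call for Mmp8 was lost when R-2HG replicate 1 (0.49, adjusted p = 0.0604), R-2HG replicate 2 (0.49, adjusted p = 0.062) or both (0.21, adjusted p = 0.518) were left out. Without both, Ltf (0.38, adjusted p = 0.0511) and Camp (0.21, adjusted p = 0.165) were not called either. Camp also lost its call with only the 6 arrays of the comparison (adjusted p = 0.055), and when IDH1wt replicate 1 (adjusted p = 0.0551) or R-2HG replicate 2 (adjusted p = 0.0525) was left out. Both comparisons against IDH1wt use the same IDH1wt arrays, so their likeness is no independent evidence. The lower Camp and Cd177 of IDH1wt enter both.

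**Figure D2:**
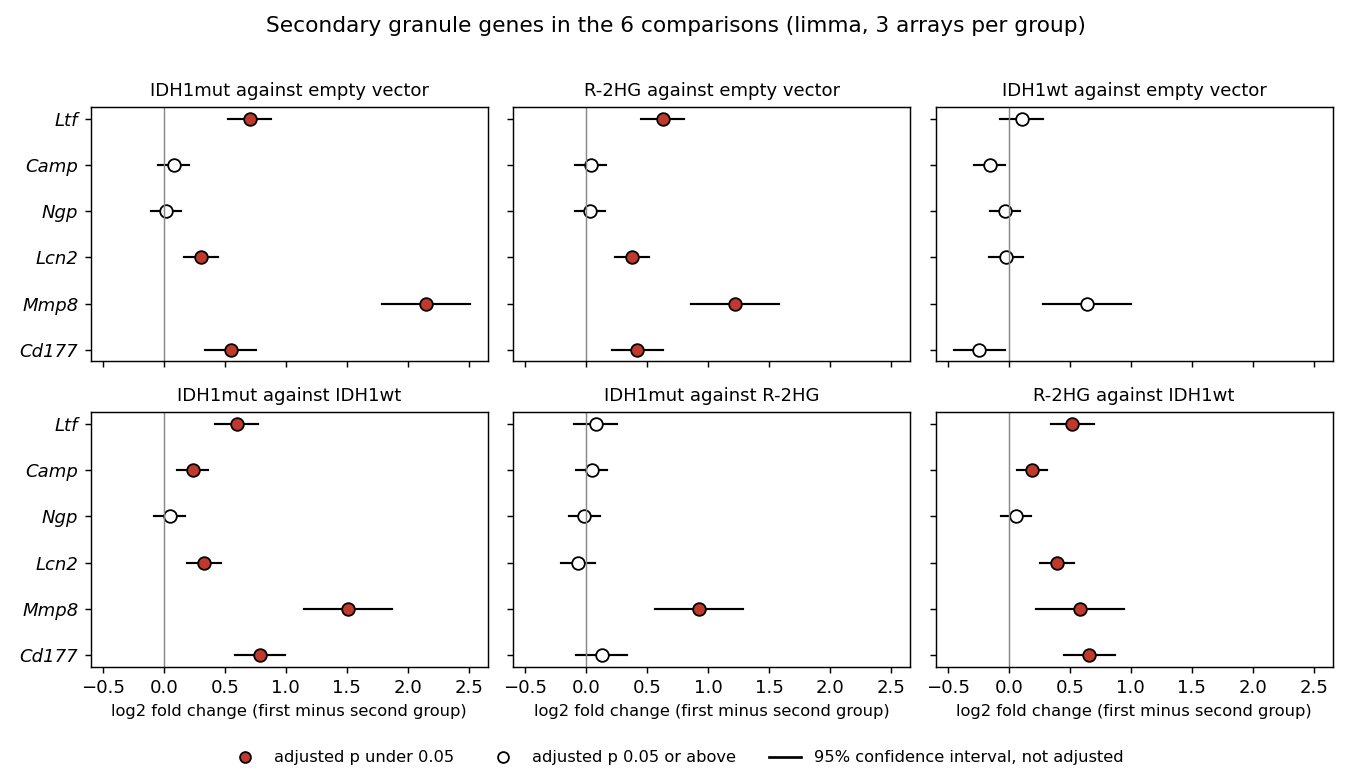
Log2 fold changes of the 6 genes (horizontal axis, first group minus second) in the 6 comparisons, with unadjusted 95% confidence intervals from limma and filled points where the adjusted p was under 0.05. Mmp8 reaches 2.15 in IDH1mut against empty vector, and Ngp has no filled point in any panel.

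The 6 genes differed in the size of their changes and in the order of the groups. The measure used next weighs size as well as shape, so 2 genes that move together by unlike amounts lie apart. By the root mean square of the log2 difference between 2 genes over the 12 arrays, after each gene's own mean was subtracted, the closest pair was Camp and Ngp (0.072), both nearly flat. Next came Camp and Lcn2 (0.13), so Lcn2 lay nearer to Camp than to Ltf (0.16) or Cd177 (0.19). Ltf and Cd177 lay 0.15 apart, and Mmp8 was the furthest from every other member, between 0.53 from Ltf and 0.80 from Ngp. The same measure over all genes found the nearest genes to each member, and it weighs size as well as shape, so a flat gene finds flat neighbours. Nearest to Ltf was Mcemp1, a mast cell-expressed membrane protein gene (0.078, against a median of 0.36 over all genes), followed by Pik3r6 and Il18rap (both 0.082). Nearest to Lcn2 was Lyz2, the lysozyme gene of myeloid cells (0.047, median 0.24), followed by Dram1 (0.055) and Dennd5a (0.056). Nearest to Mmp8 were Ifit1bl2 (0.20) and Ifit1bl1 (0.21), relatives of the interferon-induced IFIT genes, and Arg2, mitochondrial arginase (0.25), against a median of 0.84. Cd177 had Cep19 (0.075), Rhou (0.078) and Plaur, the urokinase receptor gene (0.089), with a median of 0.37. The nearest genes to Camp were Clptm1l, Myl12a and Sash3 (0.046 to 0.054, median 0.20), and those to Ngp were Vdac2, Ankrd13c and Ywhab (0.031 to 0.033, median 0.18).

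Camp, Ngp and Ltf lie within 1.195 Mb of chromosome 9, from 109847377 to 111042766, and Mmp8 far from them on the same chromosome. Between Camp and Ltf, 25 other genes were measured. Of these 2 were higher and 2 lower in IDH1mut against empty vector (median log2 fold change -0.097), and 4 were higher and 3 lower in R-2HG against empty vector (median 0.081). Over all genes 22.6% and 40.8% were called in these comparisons, so the interval held no larger share of calls in either. This interval was chosen after the positions of the members were seen.

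Most other measured genes of the secondary granule rose as well. Of 12 measured, 8 were higher and 1 lower in IDH1mut against empty vector (median 0.34). In R-2HG 8 were higher and 0 lower (median 0.35). Over all genes 22.6% and 40.8% were called in these comparisons, 10.5% and 16.5% as higher. Chil3, which encodes the chitinase-like protein Ym1, rose by 0.52 ± 0.08 in IDH1mut (adjusted p = 0.000861) and by 0.51 ± 0.08 in R-2HG (adjusted p = 0.000566). Cybb, the catalytic subunit of the phagocyte oxidase, rose by 0.38 ± 0.11 (adjusted p = 0.0229) and 0.41 ± 0.11 (adjusted p = 0.0093), and in IDH1mut its call was lost when any 1 of the empty vector arrays or IDH1mut replicate 2 or 3 was left out (adjusted p from 0.0576 to 0.078). Pglyrp1, a peptidoglycan recognition protein gene, rose in IDH1mut (0.42 ± 0.07, adjusted p = 0.00147) and was at 0.024 ± 0.072 in R-2HG (adjusted p = 0.816), a difference that itself passed (0.40, adjusted p = 0.00266), though not without R-2HG replicates 1 and 2 (0.45, adjusted p = 0.0626). Hp, the haptoglobin gene, rose in R-2HG (0.43 ± 0.11, adjusted p = 0.00672). In IDH1mut it was at 0.25 ± 0.11 with an adjusted p of 0.113, or 0.0251 without IDH1mut replicate 3 (0.36), and the difference between both groups did not pass (-0.19, adjusted p = 0.183). Without R-2HG replicates 1 and 2 the count in R-2HG fell from 8 to 1, with Chil3 (0.36, adjusted p = 0.0517), Cybb (0.15, adjusted p = 0.432) and Hp (0.30, adjusted p = 0.225) no longer called. Without IDH1mut replicate 2 the count in IDH1mut was 5. Against IDH1wt, 10 of 12 were higher in IDH1mut and 9 of 12 in R-2HG, where 8.37% and 21.4% of all genes were called as higher. In IDH1wt against empty vector, where 0.788% of all genes were called as higher, 1 of 12 was higher. That gene, Olfm4, which encodes a secondary granule glycoprotein and was singled out after its values were seen, was at 0.83 ± 0.18 there (adjusted p = 0.041) and lost its call when any 1 of 7 arrays was left out (adjusted p from 0.0545 to 0.162). It rose by 2.18 ± 0.18 in IDH1mut (adjusted p = 1.64e-05) and by 3.54 ± 0.18 in R-2HG (adjusted p = 1.05e-06) against empty vector. It was thus lower in IDH1mut than in R-2HG (-1.36 ± 0.18, adjusted p = 0.000737), where Mmp8 was higher.

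Primary granule genes went the other way. Of 8 measured, 6 were lower and 0 higher in IDH1mut against empty vector (median -0.71), where 22.6% of all genes were called. In R-2HG 6 were lower and 0 higher (median -0.35), where 40.8% of all genes were called. Mpo, the myeloperoxidase gene, fell by 0.61 ± 0.08 in IDH1mut and by 0.25 ± 0.08 in R-2HG (adjusted p = 0.000401 and 0.0333). Elane, neutrophil elastase, fell by 1.10 ± 0.13 and 0.43 ± 0.13 (adjusted p = 0.000144 and 0.0196), and Prtn3, proteinase 3, which human CD177 presents, by 0.81 ± 0.10 and 0.32 ± 0.10 (adjusted p = 0.000232 and 0.027). Ctsg, cathepsin G, fell by 0.94 ± 0.09 and 0.62 ± 0.09 (adjusted p = 4.39e-05 and 0.000323). The R-2HG calls of Mpo, Elane and Prtn3 were lost without R-2HG replicate 3 (Mpo -0.15, Elane -0.28 and Prtn3 -0.18, adjusted p from 0.0542 to 0.101) and without empty vector replicate 2 or 3, and that of Mpo also without empty vector replicate 1. The count in R-2HG was then 3 of 8 without R-2HG replicate 3, empty vector replicate 2 or empty vector replicate 3. In IDH1wt against empty vector limma called 0 of 8, 3 of 8 at an unadjusted p under 0.05. By array, the median of the 8 genes ran from 0.14 to 0.28 in empty vector, from 0.080 to 0.16 in IDH1wt and from -0.52 to -0.41 in IDH1mut, and was -0.0022, 0.016 and -0.34 in R-2HG replicates 1 to 3. The median of the 6 secondary granule genes ran from -0.16 to -0.093, from -0.17 to -0.14 and from 0.22 to 0.31 in the first 3 groups and was 0.32, 0.30 and 0.15 in R-2HG, so R-2HG replicate 3 was the lowest R-2HG array on both lists.

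Of 10 measured late maturation genes, 7 were higher and 0 lower in IDH1mut against empty vector (median 0.77). In R-2HG 5 were higher and 0 lower (median 0.40), and the other 5 did not pass. Over all genes 22.6% and 40.8% were called in these comparisons, 10.5% and 16.5% as higher. Mmp9, gelatinase B, whose human protein binds lipocalin 2, rose by 0.80 ± 0.10 and 0.71 ± 0.10 (adjusted p = 0.000148 and 0.000227). Padi4, an enzyme that citrullinates histones, rose by 0.89 ± 0.10 and 1.07 ± 0.10 (adjusted p = 8.51e-05 and 4.71e-05). Cxcr2, a chemokine receptor of mature neutrophils, rose by 1.01 ± 0.135 and 0.48 ± 0.135 (adjusted p = 0.000333 and 0.014). The latter call was lost without empty vector replicate 2 (0.37, adjusted p = 0.066). S100a8 and S100a9, the calprotectin genes, singled out after their values were seen, resembled Camp and Ngp, with log2 fold changes from 0.031 to 0.057 in both comparisons and adjusted p-values of 0.463 and above.

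**Figure D3:**
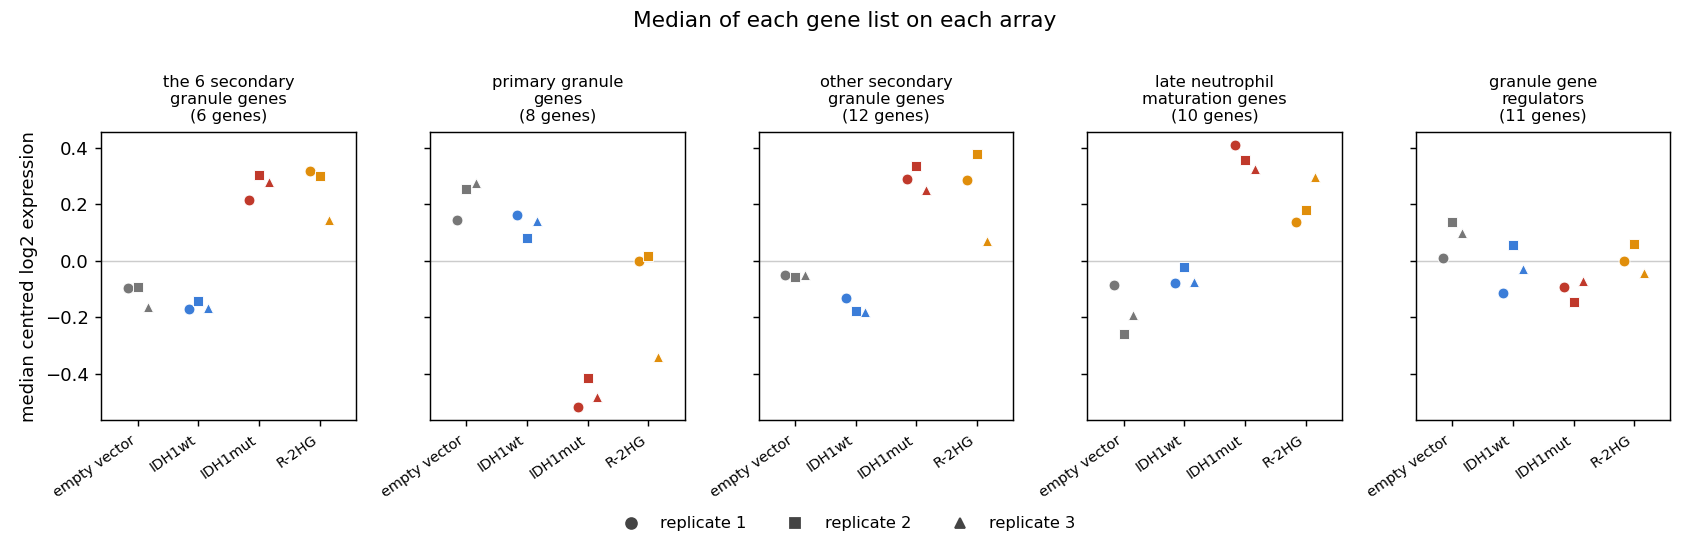
Median centred log2 expression (vertical axis) of the 6 secondary granule genes and of 4 other gene lists on each array, by group, with symbols for the replicates. The median of the 6 genes is higher on every IDH1mut and R-2HG array (0.15 or above) than on any other (-0.093 or below). Values are centred per probe set, so 0 is no baseline. The median of the primary granule genes is lowest in IDH1mut, at -0.52 to -0.41.

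Among 11 measured regulators of granule genes, 2 were higher and 5 lower in IDH1mut against empty vector (median -0.20), and 1 higher and 3 lower in R-2HG (median -0.17). Over all genes 22.6% and 40.8% were called in these comparisons, so the R-2HG count was no larger a share than that of all genes. Cebpe was not measured here. Cebpa, which drives entry into the granulocyte lineage, fell by 0.63 ± 0.08 in IDH1mut (adjusted p = 0.000181) and by 0.40 ± 0.08 in R-2HG (adjusted p = 0.00167). Myb, a progenitor factor that falls as granulocytes mature, fell by 0.47 ± 0.11 and 0.50 ± 0.11 (adjusted p = 0.0111 and 0.00481). Gfi1, a repressor needed for neutrophil formation, fell in IDH1mut (-0.48 ± 0.12, adjusted p = 0.0164), was at 0.061 ± 0.125 in R-2HG (adjusted p = 0.721), and differed between both (-0.54, adjusted p = 0.00779). It lay nearly as low in IDH1wt against empty vector (-0.44 ± 0.12, adjusted p = 0.106, groups not overlapping). IDH1mut and IDH1wt differed in Gfi1 by -0.037 ± 0.125 (adjusted p = 0.886), so its lower value was not particular to the mutant. Its fall in IDH1mut was lost without empty vector replicate 2 or 3 or IDH1mut replicate 1 (adjusted p from 0.0587 to 0.0697), each of which brought the count of lower regulators to 3, and its difference from R-2HG without R-2HG replicates 1 and 2 (-0.33, adjusted p = 0.274). Smarcd2, a chromatin remodelling subunit required for secondary granules, fell in IDH1mut (-0.30 ± 0.06, adjusted p = 0.00429) and was at 0.035 ± 0.061 in R-2HG (adjusted p = 0.669). Csf3r, the G-CSF receptor, which is also counted among the late maturation genes above, was the 1 regulator higher in both (0.80 ± 0.11 and 0.77 ± 0.11, adjusted p = 0.000489 and 0.000393). Spi1, which encodes PU.1, was the other one higher in IDH1mut (0.25 ± 0.08, adjusted p = 0.0361), and was no longer called when any 1 of 6 arrays was left out (adjusted p from 0.0512 to 0.121). Without R-2HG replicates 1 and 2, 1 regulator was lower in R-2HG, and Myb was at -0.47 there (adjusted p = 0.11). The C/EBP genes of later stages did not pass against empty vector: Cebpd was at 0.093 ± 0.091 and 0.13 ± 0.09 (adjusted p = 0.513 and 0.268) and Cebpb at 0.011 ± 0.162 and -0.028 ± 0.162 (adjusted p = 0.971 and 0.905). Against IDH1wt, Cebpd was higher in IDH1mut (0.34 ± 0.09, adjusted p = 0.0268) and R-2HG (0.37 ± 0.09, adjusted p = 0.00663). IDH1wt itself lay below empty vector in Cebpd (-0.24 ± 0.09, adjusted p = 0.21). Cebpb did not pass against IDH1wt in either group (adjusted p = 0.393 and 0.357).

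The 10 genes for partners, receptors and inhibitors of the 6 proteins include Mmp9 and Prtn3, which were already counted above. Their counts are therefore not separate evidence. Of the 10, 3 were higher and 2 lower in IDH1mut against empty vector. In R-2HG 5 were higher and 2 lower. Over all genes 22.6% and 40.8% were called in these comparisons. Fpr2, a receptor for cathelicidin peptides, rose by 1.33 ± 0.11 and 0.96 ± 0.11 (adjusted p = 1.64e-05 and 0.000103). Pecam1, the adhesion molecule that CD177 binds, fell by 0.64 ± 0.11 and 1.19 ± 0.11 (adjusted p = 0.00158 and 5.09e-05). Slc22a17, a lipocalin 2 receptor, rose in R-2HG (0.48 ± 0.11, adjusted p = 0.00406), against 0.20 ± 0.11 in IDH1mut with an adjusted p of 0.205. Of the metalloproteinase inhibitors, Timp2 rose in both (0.42 ± 0.08 and 0.33 ± 0.08, adjusted p = 0.00287 and 0.00669), though 2 of its 6 probe sets were at 0.12 and 0.090 in IDH1mut, and Timp1 rose in R-2HG (0.36 ± 0.10, adjusted p = 0.0174). Without R-2HG replicates 1 and 2 the count of higher genes in R-2HG was 2, with Timp1 (0.15, adjusted p = 0.509), Timp2 (0.26, adjusted p = 0.176) and Slc22a17 (0.23, adjusted p = 0.231) no longer called. The call for Timp1 was also lost without empty vector replicate 2 and without R-2HG replicate 1 or 2 (adjusted p from 0.0666 to 0.0766). Of the 2 lower genes in R-2HG, 1 was Pecam1 and the other Prtn3.

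Of 6 measured markers of late neutrophils, 4 were higher and 0 lower both in IDH1mut and in R-2HG against empty vector. All 6 are among the late maturation genes counted above, so this count is no further evidence. Of 56 measured markers of 9 other cell types, 3 of them on 2 lists, 19 (33.9%) were called in IDH1mut and 20 (35.7%) in R-2HG against empty vector, where 22.6% and 40.8% of all genes were called, so in R-2HG their share was not above that of all genes. Of 5 measured eosinophil markers, 2 were lower in IDH1mut and 4 in R-2HG against empty vector, and their median ran from 0.032 to 0.75 in empty vector, from 0.070 to 0.42 in IDH1wt, from -0.90 to -0.59 in IDH1mut and from -1.40 to -0.60 in R-2HG. Of 7 monocyte and macrophage markers, 4 were lower in IDH1mut and 2 in R-2HG. Of 7 mast cell and basophil markers, 1 was lower in IDH1mut and 3 in R-2HG, with medians of -2.58, -2.87 and 0.54 in R-2HG replicates 1 to 3. Of 7 stem and progenitor markers, 2 were higher and 2 lower in IDH1mut, and 4 lower in R-2HG, with medians of -0.73, -0.71 and -0.0013 in R-2HG replicates 1 to 3. Of 7 B cell markers 2 were higher in IDH1mut and 3 lower in R-2HG, and of 7 erythroid markers 2 and 1 were higher. Dendritic cell (2 higher and 1 lower of 7 in IDH1mut, 1 lower in R-2HG), T and NK cell (2 higher and 1 lower of 6, 2 lower in R-2HG) and megakaryocyte and platelet markers (limma called 0 of 6 in IDH1mut, 0 of 6 at an unadjusted p under 0.05, and 1 higher in R-2HG) made up the rest. The part of these cell types in the values of the 6 genes was not tested.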

How the data were processed

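RNA from marrow cells sorted for GFP was hybridised to Affymetrix arrays, 3 for each of 4 groups, with groups taken from the titles. The values in the table are log2 expression, and RMA is the method named in the submitters' processing notes, with no version. Within the deposited log2 table of 32533 probe sets each one is centred near its own middle: no more than 7 of its 12 values lie on either side of 0, and an exact 0 occurs in 83.6% of them. What the centring refers to is not given in the sources used here, and neither are scan dates. A single gene symbol was annotated for 28805 probe sets (757 had more than 1, 2971 had none), and only these were used. By Entrez identifier 28674 of them were in a RefSeq gene table of GRCm38.p6.

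Probe sets of a gene were averaged, giving 15858 genes, which entered limma 3.58.1 (lmFit, eBayes; R 4.3.3) as a model with a mean for each of the 4 groups and a spread shared by all 12 arrays (residual degrees of freedom 8, prior 3.96). P-values were two-sided and Benjamini-Hochberg adjusted over the 15858 genes, with calls under 0.05. The fit was tested on simulated data, and no pair of arrays held identical values. Promoter windows came from RefSeq, and figures were drawn with matplotlib 3.10.9.

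The 6 genes and all lists were chosen with earlier results of these data known. The rule for names allowed the 6 genes, the 3 nearest genes to each, any member of the regulator and partner lists, and the first 4 of each other gene list. Cell type markers are given by count and median. Alternatives were single probe sets, quantile normalization, array weights, a replicate block, a 1.5-fold minimum, leaving out the 30% of genes with the lowest SD (centred values allow no filter on level), fits of only 6 arrays, and arrays left out.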

Additional observations from a re-analysis of the deposited data

How the results depend on the processing

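Among refits of single members' values under the alternatives, 663 kept their call or its absence, 23 lost a call and 4 gained one. A change of direction was counted only where either fit had a call, and 0 such reversals occurred. Changes of sign without a call did occur, as for Ngp in IDH1mut against R-2HG (-0.0142 in the main fit, at most 4e-04). Among the 48 other genes of the lists 302 refits lost a call, 4939 kept their call or its absence and 57 gained one. By the same count 0 reversed, and single probe sets of these genes were also fitted. With a fold change of at least 1.5 the members called were 2 in IDH1mut and 2 in R-2HG against empty vector, 3 in IDH1mut and 1 in R-2HG against IDH1wt, and the genes called 930, 1627, 596 and 1676 in the same order, 119 in IDH1wt against empty vector and 1031 in IDH1mut against R-2HG. Without R-2HG replicates 1 and 2 together, 2 members were called in R-2HG against empty vector and 2 against IDH1wt, with 1824 and 1610 genes, and 336 genes in IDH1mut against R-2HG. For IDH1wt against empty vector, quantile normalization called 1 member and 419 genes, array weights 1 and 1388, and single probe sets 483 genes, where the main fit had 214. Leaving out 1 array at a time gave 4 to 4 members and 2427 to 4107 genes for IDH1mut and 4 to 4 and 4588 to 7018 for R-2HG against empty vector, 0 to 1 and 84 to 375 for IDH1wt against empty vector, 4 to 5 and 1568 to 2977 for IDH1mut against IDH1wt, 1 to 1 and 3109 to 6503 for IDH1mut against R-2HG, and 3 to 5 and 4869 to 7508 for R-2HG against IDH1wt. The cause of these shifts was not tested, apart from the fold minimum, which removes small changes by construction. The filter on SD removed Camp and Ngp, so 4 members were called in IDH1mut and 4 in R-2HG against IDH1wt. Replicate numbers share only a label: the deviations of same-numbered arrays correlated between -0.152 and 0.124 across genes, with 1 of 18 pairs over 0.1, and 2 of 12 arrays matched their own number best. With the replicate block 4, 4, 0, 5, 1 and 5 members and 3258, 6183, 147, 2178, 5346 and 6767 genes were called, in the order IDH1mut, R-2HG and IDH1wt against empty vector, IDH1mut against IDH1wt and R-2HG, and R-2HG against IDH1wt. What limits these values is the number of arrays and the missing level: signal over background could not be seen for any member.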
